A study of Mus musculus with 40 samples.

Results

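The Hox cluster genes were examined in RNA-seq libraries of the midbrain and spinal cord of mice with MPTP-induced Parkinson's disease. MPTP is a neurotoxin that destroys dopaminergic neurons. Every gene whose symbol was Hox followed by a cluster letter (a to d) and a number was taken, which gave 39 members among the 40213 gene symbols measured. The Hoxa cluster on chromosome 6 held 11 of them, Hoxb on chromosome 11 held 10, Hoxc on chromosome 15 held 9 and Hoxd on chromosome 2 held 9. The 40 libraries came from male C57BL/6N mice that were 8 weeks old when obtained, with 5 groups of 4 libraries in each tissue. The tissue was taken later, at the end of the experiment. Con mice received saline. MPTP-Veh mice received MPTP at 20 mg/kg every 2 h for 4 intraperitoneal injections, and then saline at the acupoint GB34 on the leg. MPTP-SU mice received MPTP and then SUEHP, an injectable herbal extract, at GB34, given 2 times per week for 4 injections. MPTP-SU+S mice received the same with an antagonist of the cannabinoid receptor CB1 at 3 mg/kg, which the labels spell SR141714A. MPTP-SU+T mice received SUEHP after MPTP with the PPARγ inhibitor T0070907 at 5 mg/kg. The sources do not say which segments of the cord were taken, whether a library pooled animals, or whether both tissues came from the same mice, so p-values measure only the spread between these libraries.

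Hox genes encode homeodomain transcription factors that give cells of the embryo their position along the head-to-tail axis. In mammals they lie in 4 clusters, and genes at the same place in different clusters form a paralogue group, numbered from 1 at the anterior end to 13 at the posterior end. Low-numbered groups are switched on first and reach forward into the hindbrain, whereas higher-numbered groups begin progressively further down the spinal cord. Midbrain lies in front of the anterior limit of all of them. Neurons of the adult cord keep much of this pattern.

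Promoter windows were matched by symbol for 22 of the 39 members, as 24 windows from 250 bases before to 50 bases after the transcription start (RefSeq, GRCm38.p6, given 5′ to 3′ on the strand of the gene). Windows of 3 members are shown: Hoxb8 as the member with the highest level in the cord, Hoxd10 as the posterior gene with the smallest p-value between MPTP-Veh and Con, and Hoxd12 as a neighbour of Hoxd10 with almost no counts in either tissue. Capitals mark CG dinucleotides.
Hoxb8, chr11:96281655-96281954, plus strand: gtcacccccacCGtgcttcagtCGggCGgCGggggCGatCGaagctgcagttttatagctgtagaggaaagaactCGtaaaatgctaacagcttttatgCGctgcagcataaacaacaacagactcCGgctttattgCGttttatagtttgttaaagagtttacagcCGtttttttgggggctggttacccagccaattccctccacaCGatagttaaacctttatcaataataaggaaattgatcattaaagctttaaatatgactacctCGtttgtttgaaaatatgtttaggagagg
Hoxd10, chr2:74691641-74691940, plus strand: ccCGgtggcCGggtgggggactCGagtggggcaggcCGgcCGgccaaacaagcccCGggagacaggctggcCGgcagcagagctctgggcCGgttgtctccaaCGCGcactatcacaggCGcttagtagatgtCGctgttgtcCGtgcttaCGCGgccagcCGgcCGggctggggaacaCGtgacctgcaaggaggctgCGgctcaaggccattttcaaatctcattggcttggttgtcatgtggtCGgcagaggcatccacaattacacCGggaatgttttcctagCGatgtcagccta
Hoxd12, chr2:74674763-74675062, plus strand: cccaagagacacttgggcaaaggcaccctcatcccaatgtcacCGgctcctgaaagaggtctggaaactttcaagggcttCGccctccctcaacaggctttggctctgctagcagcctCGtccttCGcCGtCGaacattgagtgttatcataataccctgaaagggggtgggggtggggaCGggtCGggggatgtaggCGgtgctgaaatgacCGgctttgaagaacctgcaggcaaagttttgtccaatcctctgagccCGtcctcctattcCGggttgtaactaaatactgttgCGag
The Hoxb8 window held 13 CG dinucleotides and the Hoxd12 window also 13, a number reached by 37.9% of all 32851 windows. In the Hoxd10 window there were 22, reached by 23.1% of all windows. The 24 Hox windows held a median of 14.5 CG dinucleotides (range 4 to 45), against a median of 7 (0 to 67) in all windows. The TATA box letters TATAAA, searched on both strands, stood in 4 Hox windows (16.7%, against 13.6% of all windows). The letters TTTATG, a core motif of the Cdx homeodomain factors, stood in 5 Hox windows on either strand (20.8%, against 11.9%), and the Hoxb8 window held both motifs. These matches are descriptions of the letters alone.

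Library totals were 11958200 to 16639823 counts in midbrain and 14642808 to 16615378 in spinal cord. The labelled tissues were checked against defining markers. Otx2, which specifies forebrain and midbrain, had 144 to 390 counts in each midbrain library and 0 in all spinal cord libraries. Mnx1, a motor neuron gene, had 4 to 22 counts in each spinal cord library and 0 in all midbrain libraries. Over the whole lists, 12 midbrain markers summed to 131 to 324 CPM (counts relative to library size, scaled by TMM over the 40 libraries) in midbrain and 25.2 to 34.9 CPM in cord, and 12 spinal cord markers to 600 to 705 CPM in cord and 45.9 to 242 CPM in midbrain. Midbrain MPTP-Veh replicate 4 stood apart, with 1.35% of its counts from mitochondrially encoded genes against 9.92% to 17.5% in the other 19 midbrain libraries. In spinal cord, the row Gm26917 took 8.04% of Con replicate 2 and 10.99% of MPTP-SU+T replicate 1, against 0.65% to 3.34% of the other 18 libraries. For comparisons of groups that use these 3 libraries, the calls of members are also given without them. Overlaps of ranges, medians over members and the balance of posterior and anterior genes use all libraries.

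Hox transcripts were abundant in every spinal cord library and near the limit of detection in midbrain. Hox counts numbered 12857 to 17564 per spinal cord library, or 878 to 1101 CPM of the library total before scaling, with a median of 988. In midbrain they numbered 12 to 162 per library, or 0.73 to 10.4 CPM. Between 35 and 38 members had a count in each spinal cord library and between 5 and 22 in each midbrain library. A median of at least 1 CPM was reached by 33 members in spinal cord and by 0 in midbrain. In bulk tissue, fewer cells of a type and less RNA per cell cannot be told apart.

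Transcripts of all paralogue groups were found in the spinal cord, with the highest levels in groups 8 to 10. Levels between genes were compared as CPM per kilobase of the longest transcript. Summed over a paralogue group, the median of the 20 libraries climbed from 1.17 CPM per kb in group 1 to 4.56 in group 2, 17.4 in group 3, 19.1 in group 4, 27.3 in group 5, 50.5 in group 6, 53.5 in group 7 and 119 in group 8. It was 62.1 CPM per kb in group 9 and 72.3 in group 10. Beyond that it fell off to 4.70 in group 11, 0.88 in group 12 and 0.72 in group 13. Group 8 alone supplied 30.9% of all Hox counts, group 9 supplied 16.9% and group 10 supplied 15.3%. By cluster, Hoxb summed to a median of 160.5 CPM per kb, Hoxa to 111, Hoxc to 101 and Hoxd to 61.5.

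**Figure D1:**
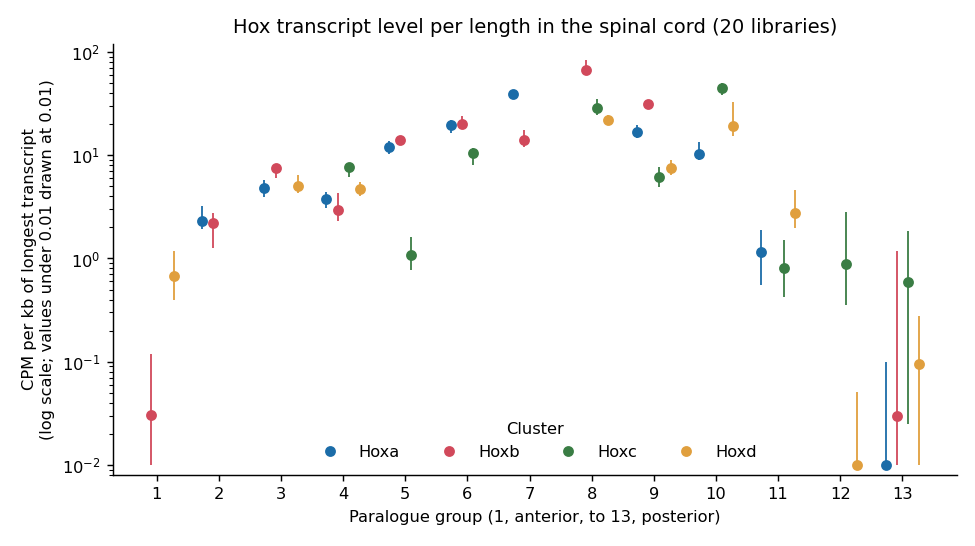
Level of 38 Hox genes in the spinal cord by paralogue group, as CPM per kb of the longest transcript on a log scale. Points are medians and lines the lowest to highest of 20 libraries, coloured by cluster. Levels are highest in groups 8 to 10, led by Hoxb8 at 67.5, and drop in groups 11 to 13.

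Paralogue groups 1 to 3 pattern the hindbrain in the embryo, and their levels in the cord were low. Hoxd1 had a median of 0.68 CPM per kb (0.39 to 1.17 over 20 libraries). Hoxb1, a marker of the fourth rhombomere, had 24 counts in all 20 libraries together and none in 7 of them.
Hoxa2, which patterns the second branchial arch, had a median of 2.33 CPM per kb (1.94 to 3.22). Hoxb2 lay close to it at 2.19 (1.25 to 2.74), and their ranges overlapped. The group 3 genes, active up to the caudal rhombomeres, were higher: Hoxb3 had 7.57 (5.99 to 8.32), Hoxd3 had 5.09 (4.35 to 6.43) and Hoxa3 had 4.80 (3.95 to 5.74).

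Groups 4 to 7 mark the cervical and brachial cord. In group 4, whose anterior limits lie near the border of hindbrain and cord, Hoxc4 had the highest median at 7.66 CPM per kb (6.10 to 8.37), followed by Hoxd4 at 4.70 (4.02 to 5.48), Hoxa4 at 3.75 (3.11 to 4.44) and Hoxb4 at 2.97 (2.31 to 4.27). Group 5 includes Hoxa5 and Hoxc5, which are required for phrenic motor neurons. Hoxb5 was the highest of that group at 13.97 (12.5 to 15.4), Hoxa5 had 11.9 (10.2 to 13.7) and Hoxc5 had 1.08 (0.78 to 1.60), below the range of both.
Hoxb6 and Hoxa6 had medians of 20.2 (19.0 to 24.2) and 19.7 (16.4 to 22.1) CPM per kb and their ranges overlapped. Hoxc6, which promotes the limb-innervating motor column at forelimb level, had 10.6 (8.14 to 11.7). Hoxa7 stood at 39.7 (35.1 to 42.3), well above Hoxb7 at 13.9 (12.0 to 17.7).

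Groups 8 to 10 carried the highest levels. Hoxb8 led all members with a median of 67.5 CPM per kb (59.8 to 84.3). This gene acts in dorsal horn neurons and in a lineage of microglia. The next in order, Hoxc10, had 45.3 (38.3 to 50.5) and did not overlap with Hoxb8.
Hoxc8, which directs motor pools of the caudal forelimb segments, had 28.5 (24.5 to 34.9) and Hoxd8 had 21.8 (20.1 to 24.4), again without overlap. Group 9 marks the thoracic cord, where Hoxc9 represses limb-level motor identities. Hoxb9 was the highest of the group at 31.1 (29.0 to 33.0), before Hoxa9 at 16.7 (14.7 to 19.5), Hoxd9 at 7.54 (6.44 to 8.97) and Hoxc9 at 6.12 (4.96 to 7.72).
Group 10 specifies the lumbar cord and the hindlimb motor columns. Besides Hoxc10, it held Hoxd10 at 19.1 (15.3 to 33.1) and Hoxa10 at 10.3 (8.97 to 13.5). In the order of the members described here, neighbours did not overlap at 4 places, namely between Hoxb8 and Hoxc10, Hoxa7 and Hoxb9, Hoxc8 and Hoxd8, and Hoxa10 and Hoxc4. Their other neighbours overlapped in their ranges over the 20 libraries.

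The posterior groups 11 to 13 were sparse and varied most. Hoxd11, a lumbosacral gene, was the highest of them at 2.79 CPM per kb (1.95 to 4.66), with Hoxa11 at 1.16 (0.56 to 1.89) and Hoxc11 at 0.81 (0.42 to 1.52). Hoxc12 had a median of 0.88 (0.35 to 2.85) and Hoxc13 one of 0.59 (0.025 to 1.86).
The remaining posterior genes were close to undetected. Hoxd13 had 80 counts over the 20 libraries, Hoxb13 had 112, Hoxa13 had 13 and Hoxd12 had 5. Of the 112 Hoxb13 counts, 40 came from Con replicate 1 and 27 from MPTP-SU replicate 2, and 6 libraries had none. Group 13 genes are active at the tail end of the embryo.
The coefficient of variation over the 20 libraries, taken on CPM, was lowest for Hoxa7 (4.35%), Hoxd8 (4.65%) and Hoxb9 (4.66%). Among members that passed the low-count filter it was highest for Hoxc13 (71.1%), Hoxc12 (62.8%) and Hoxc11 (36.5%), and it was 24.1% for Hoxd11 and 20.2% for Hoxd10, against 6.13% for Hoxb6 at a like level. The position of a few members depends on the length used. With the union of exons Hoxb9 came before Hoxa7, and with the median transcript length Hoxa7 reached 99.8 and Hoxa9 63.4 CPM per kb. Overlapping transcripts add to this, since Hoxb3 and Hoxb4, Hoxd3 and Hoxd4, and Hoxc4 to Hoxc6 share sequence, antisense genes lie across several members, and the use of strand in counting is not given in the sources used here.

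Hox levels were higher in spinal cord than in midbrain, without overlap of the tissue ranges in 33 of all 39 members (5.85% of all 17426 genes tested were higher without overlap). The exceptions were Hoxb1, Hoxa13, Hoxb13, Hoxc13, Hoxd12 and Hoxd13. The log2 difference was largest for Hoxb8, at 13.80 (SE 0.12, adjusted p = 5.6e-33 by edgeR's quasi-likelihood test). All 34 members that passed the low-count filter were called higher (adjusted p below 0.05 and over 1.5-fold), and 12.2% of all genes were. Of the 34, 32 passed it through the cord libraries alone, so that their direction was set by the filter and the count is given as a description.

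The ratio of spinal cord to midbrain was smallest at the anterior end of the series and in the sparse group 13 (Hoxd13 3.07-fold, 1.94 to 5.02). On pooled CPM, Hoxd1 was 5.85-fold higher in cord (95% counting interval 4.53 to 7.66). Hoxa2 was 25.9-fold, Hoxb2 47.4-fold, Hoxb3 67.3-fold, Hoxa3 89.3-fold and Hoxd3 140-fold higher. In group 4 the ratio was 25.1 for Hoxa4, 39.0 for Hoxb4, 55.5 for Hoxc4 and 338 for Hoxd4.
In group 5 it was 36.5 for Hoxc5, 116 for Hoxb5 (95.7 to 142) and 168 for Hoxa5. Among genes of groups 6 to 11 with a midbrain count, Hoxc6 (836) and Hoxd11 (958) had the smallest ratios, and Hoxb8 reached 27580 (7635 to 227742) with 3 or fewer midbrain counts behind it. Intervals and floors cover counting error only.
No count was found in any of the 20 midbrain libraries for 9 members: Hoxa6, Hoxa11, Hoxa13, Hoxb1, Hoxc11, Hoxc12, Hoxd9, Hoxd10 and Hoxd12. A count of 0 allows up to 3 counts over the pooled midbrain libraries, or 0.0098 CPM. Against that floor Hoxd10 was at least 3737-fold higher in cord, Hoxa6 at least 1730-fold, Hoxd9 at least 1667-fold, Hoxa11 at least 264-fold, Hoxc11 at least 178-fold and Hoxc12 at least 116-fold.

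The few midbrain counts came from the anterior end of the series. Of 949 Hox counts in the 20 midbrain libraries, paralogue group 1 gave 18.1%, group 2 gave 10.01%, group 3 gave 19.4%, group 4 gave 24.7% and group 5 gave 17.9%. Groups 6 to 13 gave 94 counts. In spinal cord the groups 1 and 2 gave 0.26% and 1.14%.
Group 1 was found evenly, with 2 to 14 counts in every midbrain library. Groups 2 to 5 were uneven. Their counts in replicates 1 to 4 were 10, 77, 16 and 149 in Con, 35, 6, 9 and 80 in MPTP-Veh, 16, 3, 3 and 3 in MPTP-SU, 121, 11, 42 and 20 in MPTP-SU+S, and 27, 19, 31 and 5 in MPTP-SU+T. Con replicate 4 and MPTP-SU+S replicate 1 were the highest libraries, and all groups overlapped.
Hoxb5 had 28 counts in Con replicate 4, 22 in Con replicate 2, 17 in MPTP-Veh replicate 4 and 17 in MPTP-SU+S replicate 1. Groups 6 to 13 had 0 to 10 counts per library except in MPTP-Veh replicate 4, the library with few mitochondrial counts, which had 30. Of these, 9 were Hoxc10, 5 Hoxc6 and 4 Hoxb9.

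**Figure D2:**
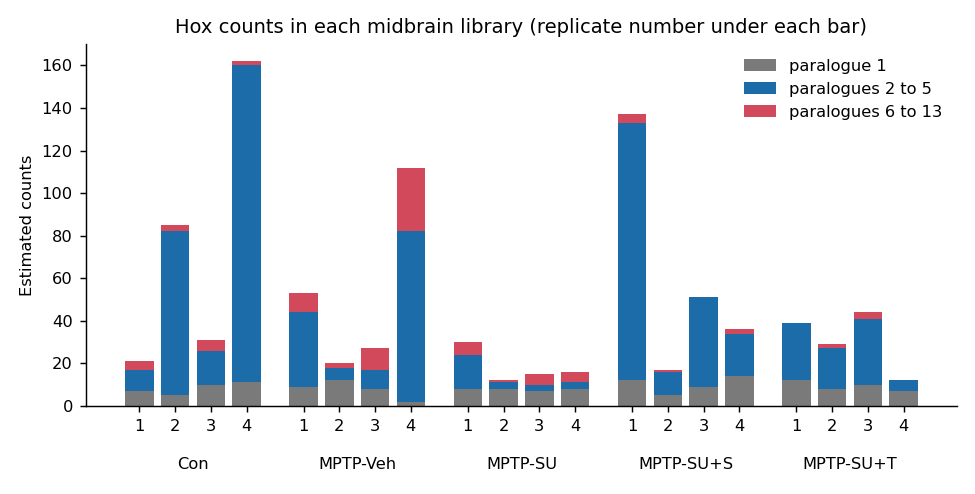
Hox counts in each of the 20 midbrain libraries, as stacked bars of estimated counts for paralogue group 1, groups 2 to 5 and groups 6 to 13, with replicate numbers below. Con replicate 4 holds the most with 162 counts, and MPTP-Veh replicate 4 holds the most counts of groups 6 to 13, 30.

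Markers listed for the neighbouring pons and medulla also differed between midbrain libraries, and the 12 listed genes together summed to 26.0 to 288 CPM. Slc6a5, the glycine transporter of inhibitory neurons in hindbrain and cord, had 12 to 445 counts, with 445 in MPTP-SU+S replicate 1, 257 in Con replicate 4 and 241 in Con replicate 1. The first of these 3 libraries had 121 counts of groups 2 to 5, the second 149 and the third 10. Tph2, which makes serotonin in the raphe, had 8 to 1216 counts and followed another order. It had 1216 counts in MPTP-SU+T replicate 3, 1170 in MPTP-Veh replicate 4 and 831 in MPTP-Veh replicate 2. Groups 2 to 5 had 31, 80 and 6 counts in these libraries. In Con replicate 4, with 149 counts of groups 2 to 5, Tph2 had 162. Mnx1 stayed at 0. The part of these tissues in the midbrain Hox counts was not tested.

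Only Hoxb5 and Hoxc4 passed the filter in midbrain, and neither was called in any comparison of groups. Among the 5 groups Hoxb5 had an adjusted p of 0.156 by edgeR's quasi-likelihood test, where 7.1% of 16629 genes were called. For MPTP-SU against MPTP-Veh its log2 difference was -3.24 (SE 1.78, adjusted p = 0.178) and that of Hoxc4 was -2.53 (SE 1.48, adjusted p = 0.205), and 13.5% of all genes were called. For MPTP-Veh against Con Hoxb5 gave -1.07 (SE 1.13) and Hoxc4 gave -0.44 (SE 1.08), where 0.018% of genes were called. For MPTP-SU+S against MPTP-SU Hoxb5 gave 3.44 (SE 1.71) and Hoxc4 gave 1.85 (SE 1.54), and for MPTP-SU+T against MPTP-SU they gave -0.08 (SE 2.54) and 0.98 (SE 1.68), with 0% of genes called in both. Without MPTP-Veh replicate 4, MPTP-Veh against Con gave -3.95 (SE 1.42, adjusted p = 0.264) for Hoxb5 and -2.95 (SE 1.28, adjusted p = 0.359) for Hoxc4, and MPTP-SU against MPTP-Veh gave -0.36 (SE 2.21) and -0.03 (SE 1.83). Hoxb5 was then called among the 5 groups (adjusted p = 0.0359). The standard errors were wide, and 3 counts corresponded to 0.17 to 0.28 CPM in a midbrain library.

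Among the 5 groups of spinal cord libraries, Hoxc10 was the single member called, with an adjusted p of 0.0223 by edgeR's quasi-likelihood test (25 of 16682 genes called, 0.15%). Hoxc10 specifies lumbar motor neurons. Its CPM values in replicates 1 to 4 were 96.4, 89.8, 89.4 and 94.2 in Con, 77.2, 79.6, 78.9 and 81.5 in MPTP-Veh, 89.0, 92.6, 85.3 and 87.7 in MPTP-SU, 87.5, 92.3, 90.5 and 84.3 in MPTP-SU+S, and 73.2, 75.0, 78.8 and 80.7 in MPTP-SU+T. MPTP-Veh and MPTP-SU+T lay below the other 3 groups without overlap. The call was lost without MPTP-Veh replicate 2 (adjusted p = 0.0555), MPTP-Veh replicate 3 (0.0519) or MPTP-SU+T replicate 3 (0.0913), and with library size as the only scaling (0.271). The adjusted p was 0.00448 without Con replicate 2 and 0.0382 without MPTP-SU+T replicate 1. Over all alternatives the adjusted p ranged from 2.0e-06 to 0.271.
Hoxd10, its paralogue with a like role, had an adjusted p of 0.0592, Hoxa10 one of 0.117, Hoxc13 one of 0.144 and Hoxa11 one of 0.193. In all, 8 of 34 tested members had an unadjusted p below 0.05, against 16.8% of all genes. All 8 apart from Hoxb4 belonged to groups 10 to 13.

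MPTP-Veh against Con addresses the effect of MPTP. No member passed the test in spinal cord. edgeR's quasi-likelihood test called 0 of 16682 genes (0%), with 2137 genes (12.8%) at an unadjusted p below 0.05, and the smallest adjusted p was 0.0963. DESeq2 called 1 gene, Hoxd10, and limma-voom called 0. Among the members, 16 of 34 had an unadjusted p below 0.05. Their log2 differences had a median of -0.12, against -0.0019 for all genes, and 23 were negative and 11 positive. The 95% interval lay within 1.5-fold for 23 of 34 members.

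By axial position, values in groups 9 to 13 were negative throughout, and those further forward had both signs. In groups 10 to 13, 8 of 8 tested genes had a negative log2 difference and an unadjusted p below 0.05, with a median of -0.72 (-2.44 to -0.23). In group 9, 4 of 4 were negative, with a median of -0.14, and 2 had an unadjusted p below 0.05. Groups 4 to 8 had 7 positive and 8 negative values, with a median of -0.03 (-0.44 to 0.23), and 5 of 15 had an unadjusted p below 0.05. Groups 1 to 3 had 4 positive and 3 negative values, with a median of 0.02 (-0.22 to 0.26), and 1 of 7 had such a p. Over all genes the share with such a p was 12.8%.
These counts and medians describe the list and carry no test of their own. In groups 4 to 8 the genes with an unadjusted p below 0.05 were Hoxb4, Hoxc5 (log2 difference -0.44), Hoxb7 (-0.22), Hoxb8 (-0.19) and Hoxc8, and in groups 1 to 3 it was Hoxd3 (-0.22).

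**Figure D3:**
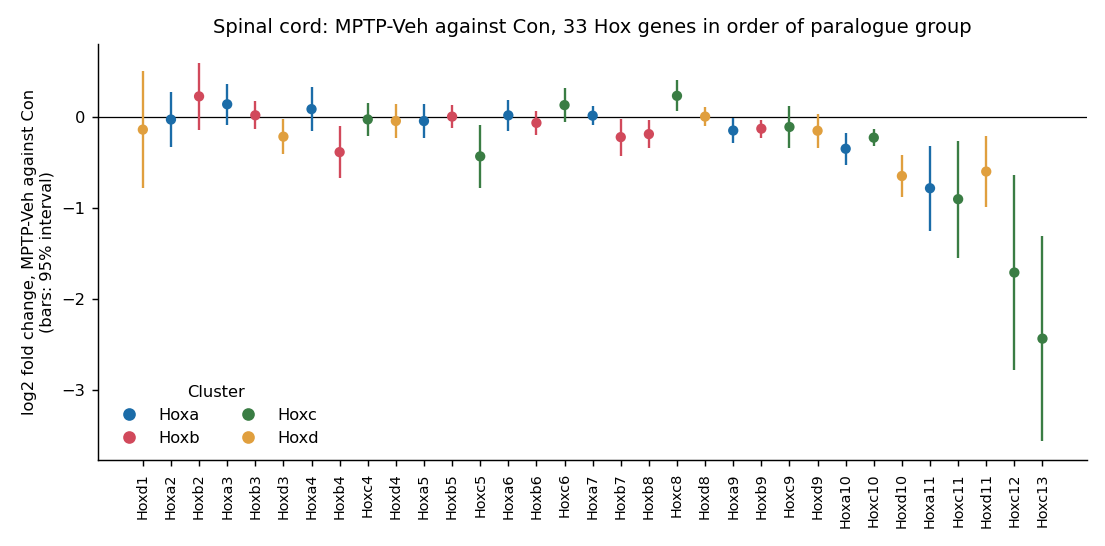
Log2 fold change of MPTP-Veh against Con in the spinal cord for 33 of the 34 tested Hox genes in order of paralogue group, with 95% intervals from edgeR, coloured by cluster. Values have both signs in groups 1 to 8, from -0.44 to 0.26, and are negative for all 8 genes of groups 10 to 13, down to -2.44 for Hoxc13. No gene passed the test.

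Hoxd10 was at 60.1, 42.1, 41.2 and 44.3 CPM in Con and at 27.8, 32.1, 31.1 and 29.2 CPM in MPTP-Veh. The groups did not overlap, and Con replicate 1 was the highest library. The log2 difference was -0.65 (SE 0.11, adjusted p = 0.0963).
Hoxc10, with the values given above, averaged 92.4 ± 3.4 CPM in Con and 79.3 ± 1.8 CPM in MPTP-Veh (SD, n = 4), a log2 difference of -0.23 (SE 0.05, adjusted p = 0.0963). Hoxa10 was at 34.2, 31.6, 31.4 and 34.7 CPM in Con and at 25.8, 25.7, 27.05 and 25.3 CPM in MPTP-Veh, which did not overlap either. Its log2 difference was -0.35 (SE 0.09, adjusted p = 0.188). Reads of Hoxa10 and Hoxa9 are uncertain, since a separate row for a transcript joining both took 0 to 111 counts in a spinal cord library.

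In group 11, Hoxa11 was at 3.46, 3.17, 3.05 and 4.31 CPM in Con and at 2.84, 2.27, 1.64 and 1.38 CPM in MPTP-Veh, without overlap, for a log2 difference of -0.79 (SE 0.23, adjusted p = 0.217). Hoxc11 was at 3.07, 1.51, 1.84 and 2.64 CPM in Con and at 1.63, 1.33, 0.85 and 1.05 CPM in MPTP-Veh. These groups overlapped, and the log2 difference was -0.91 (SE 0.31, adjusted p = 0.251).
Hoxd11 also overlapped, at 15.7, 8.59, 9.86 and 11.1 CPM in Con and 6.90, 9.85, 6.58 and 6.70 CPM in MPTP-Veh, with a log2 difference of -0.60 (SE 0.19, adjusted p = 0.235). Of the most posterior genes, Hoxc12 was at 2.22, 0.68, 0.69 and 2.94 CPM in Con and 0.48, 0.76, 0.37 and 0.39 CPM in MPTP-Veh. Its log2 difference was -1.71 (SE 0.52, adjusted p = 0.226), and Con itself split into a higher and a lower pair.
Hoxc13 was at 4.57, 1.51, 2.02 and 3.12 CPM in Con and 0.61, 1.01, 0.06 and 0.39 CPM in MPTP-Veh. The groups did not overlap, and the log2 difference of -2.44 (SE 0.55, adjusted p = 0.159) was the largest in size of the 34 members. Hoxb13, which failed the filter, had 40, 2, 1 and 10 counts in Con and 1, 0, 0 and 0 in MPTP-Veh.

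**Figure D4:**
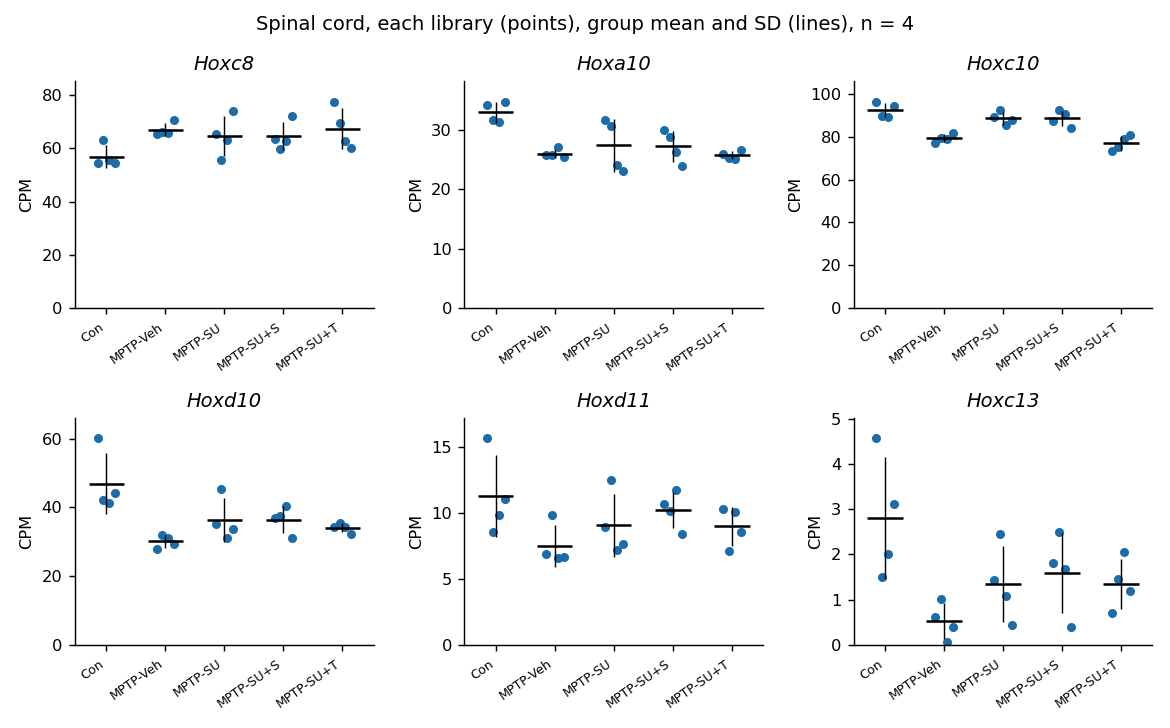
CPM of Hoxc8, Hoxa10, Hoxc10, Hoxd10, Hoxd11 and Hoxc13 in each spinal cord library by group. Points are libraries, horizontal lines group means and vertical lines SD (n = 4). Con and MPTP-Veh do not overlap for Hoxc8, Hoxa10, Hoxc10, Hoxd10 and Hoxc13, and overlap for Hoxd11.

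Outside the posterior groups, Hoxc8 differed in the other direction. It was at 54.6, 63.2, 55.6 and 54.4 CPM in Con and at 65.5, 66.4, 65.8 and 70.9 CPM in MPTP-Veh, with no overlap and a log2 difference of 0.23 (SE 0.08, adjusted p = 0.267). Hoxc6 was at 14.9, 16.2, 16.6 and 15.8 CPM in Con and 16.9, 16.9, 18.0 and 18.0 CPM in MPTP-Veh, again without overlap (log2 difference 0.13, SE 0.09, adjusted p = 0.575).
Hoxb9 was at 84.0, 83.2, 81.8 and 82.4 CPM in Con and 77.8, 76.2, 75.7 and 74.6 CPM in MPTP-Veh (log2 difference -0.13, SE 0.05, adjusted p = 0.278), and Hoxb4 at 10.2, 7.46, 8.30 and 10.96 CPM against 7.44, 6.38, 7.31 and 7.29 CPM (-0.39, SE 0.14, adjusted p = 0.263). For both genes every MPTP-Veh library was below every Con library. In all, 7 of 34 members were lower without overlap (Hoxa10, Hoxa11, Hoxb4, Hoxb9, Hoxc10, Hoxc13 and Hoxd10), against 2.22% of all genes, and 2 were higher without overlap (Hoxc6 and Hoxc8), against 2.40%. An exact permutation test of 4 against 4 libraries gives any groups without overlap its smallest two-sided p, 0.0286. This p, which is not adjusted, therefore adds nothing to the missing overlap.

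The calls for MPTP-Veh against Con depended on a single library. Without Con replicate 2, the library rich in Gm26917, 4 members were called: Hoxd10 (log2 difference -0.70, adjusted p = 0.0102), Hoxc13 (-2.63, 0.0229), Hoxc12 (-1.95, 0.0370) and Hoxd11 (-0.70, 0.0404). Hoxc10 (-0.24, 0.0179) and Hoxa10 (-0.37, 0.0317) then passed the adjusted p but not the fold. The fold changes moved little, and the number of all genes called rose from 0 to 58. Other tissue in the dissection was followed through its markers. The sum of 11 nerve root and dorsal root ganglion markers was 656 to 2162 CPM in Con and 775 to 1404 CPM in MPTP-Veh, and that of 10 skeletal muscle markers 44.4 to 160 and 13.8 to 251 CPM. The groups overlapped in both. Without Con replicate 2, 2 of 7 tested nerve root and ganglion markers were called lower in MPTP-Veh, beside the 4 Hox genes, and the part of these tissues in the Hox values was not tested.

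SUEHP was examined by MPTP-SU against MPTP-Veh, which shares the MPTP-Veh libraries with the comparison above, so opposite signs in the 2 comparisons are not independent. edgeR's quasi-likelihood test called 0 members and 0% of all genes, with 3.81% of genes at an unadjusted p below 0.05, and DESeq2 also called 0 genes. Of 34 members 5 had an unadjusted p below 0.05: Hoxc10 (log2 difference 0.16, SE 0.05), Hoxd10 (0.27), Hoxa9 (0.14), Hoxc12 (1.18) and Hoxc13 (1.37), all with an adjusted p of 0.999. The 8 genes of groups 10 to 13 had positive values, with a median of 0.34, against 0.01 in groups 4 to 8.
Hoxa9, a thoracic gene, was at 52.2, 53.2, 52.2 and 50.4 CPM in MPTP-Veh and at 56.6, 55.3, 58.7 and 58.9 CPM in MPTP-SU. For Hoxa9 and Hoxc10 alone the lowest MPTP-SU value exceeded the highest MPTP-Veh value (as for 1.44% of all genes). The exact permutation test, two-sided, then gives p = 0.0286 by the missing overlap alone. Hoxd10 overlapped, at 35.2, 45.5, 31.0 and 33.6 CPM in MPTP-SU. For 28 of 34 members the 95% interval lay within 1.5-fold.

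Neither inhibitor gave a called member. For MPTP-SU+S against MPTP-SU, 0% of genes were called (1 by DESeq2, not a member), and Hoxa2 was the only member with an unadjusted p below 0.05 (log2 difference 0.30, SE 0.14, adjusted p = 0.899), where 5.49% of all genes had such a p. Hoxa2 was at 4.25, 3.45, 3.69 and 5.32 CPM in MPTP-SU and 4.89, 5.71, 5.02 and 4.97 CPM in MPTP-SU+S, which overlapped. Hoxa7 was lower without overlap (2.29% of genes were), at 80.1, 82.8, 80.2 and 85.2 CPM against 77.9, 78.8, 79.0 and 79.6 CPM, a log2 difference of -0.06 (SE 0.05).
For MPTP-SU+T against MPTP-SU, 4 genes were called (0.024%) and none was a member. Hoxc10 had a log2 difference of -0.20 (SE 0.05, adjusted p = 0.143) and Hoxa9 one of -0.14 (SE 0.06, adjusted p = 0.379), and both were lower in every MPTP-SU+T library (4.45% of genes were). Without MPTP-SU+T replicate 1 the log2 differences were -0.19 (SE 0.05, adjusted p = 0.173) for Hoxc10 and -0.15 (SE 0.07, adjusted p = 0.368) for Hoxa9. Hoxa9 was at 51.8, 47.6, 53.0 and 54.7 CPM in MPTP-SU+T. These were 2 of 34 members with an unadjusted p below 0.05, against 12.1% of genes. Both comparisons share the MPTP-SU libraries. The 95% interval lay within 1.5-fold for 27 members in the first and 28 in the second.

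How far the balance of the series leaned to the posterior end was described for each library by the mean log2 CPM of the 8 tested genes of groups 10 to 13 minus that of the 15 of groups 4 to 8. This difference, which uses the same values as above and is given without a test, was -1.02, -1.70, -1.62 and -1.14 in Con and -2.07, -1.81, -2.55 and -2.34 in MPTP-Veh. These groups did not overlap. It was -1.55, -1.32, -2.01 and -1.99 in MPTP-SU, -1.63, -1.38, -1.54 and -2.16 in MPTP-SU+S, and -2.15, -1.89, -1.43 and -1.66 in MPTP-SU+T, and each of these 3 groups overlapped with both Con and MPTP-Veh. Within a group the libraries spread by an SD of 0.31 to 0.34. The labels give no cord level for a library.

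**Figure D5:**
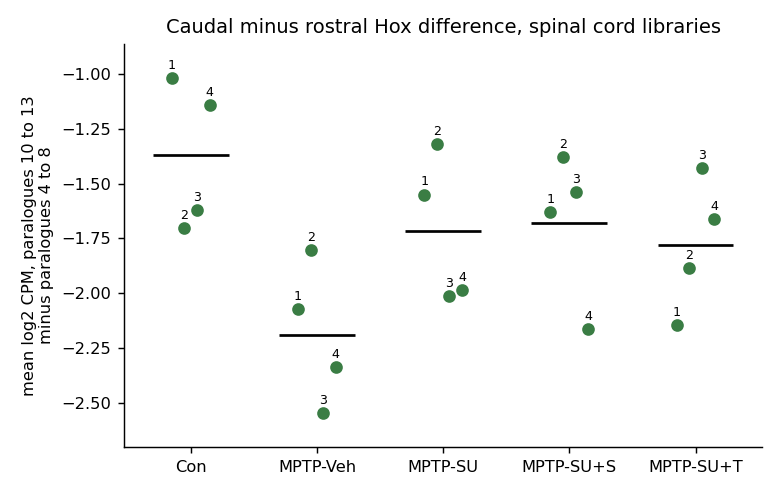
Mean log2 CPM of Hox groups 10 to 13 minus that of groups 4 to 8 in each spinal cord library. Points are libraries with replicate numbers and lines are group means. Con runs from -1.70 to -1.02 and MPTP-Veh from -2.55 to -1.81, and the other 3 groups overlap with both.

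Pairs of genes were also compared across libraries. Over the 20 spinal cord libraries with group means removed, 4 pairs of genes were correlated on log2 CPM, with two-sided p-values from 100000 permutations within groups. Hoxc10 and Hoxd10 gave r = 0.66 (p = 0.00596, adjusted p = 0.0238 over 4 pairs) and rho = 0.59 (p = 0.0125), and r = 0.51 without the 2 libraries farthest from the median of Hoxc10. Hoxa10 and Hoxc10 gave r = 0.51 (p = 0.0332, adjusted 0.0664) and rho = 0.52 (p = 0.0419), and r = 0.62 without the 2 farthest.
The lumbar and cervical pair Hoxc10 and Hoxc5 gave r = -0.46 (p = 0.067, adjusted 0.0893) and rho = -0.48 (p = 0.0566), and r = -0.35 without 2 libraries. The cervical pair Hoxa5 and Hoxb5 gave r = 0.22 (p = 0.488, adjusted 0.488) and rho = 0.08 (p = 0.788), and r = 0.28 without 2. Of the 4 relations only the first passed the correction, and it lost the call with each of 6 libraries left out in turn, with r = 0.56 and an adjusted p of 0.121 without Con replicate 1. Genes of a library share its depth and scaling.

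The partners of the Hox genes were followed through lists of their cofactors, cluster transcripts, neighbours and regulators. In spinal cord against midbrain, 7 of 20 listed noncoding transcripts of the Hox clusters could be tested. All 7 passed the filter through the cord libraries alone, so that a higher level there was set by the filter. Hotair, transcribed from the Hoxc cluster, was higher by 8.43 on the log2 scale (SE 0.27, adjusted p = 1.7e-18), Hoxb3os by 4.93 (SE 0.31, adjusted p = 3.1e-15) and Haglr, from the Hoxd cluster, by 2.48 (SE 0.18, adjusted p = 2.3e-14). Of all genes 12.2% were called higher in cord and 9.8% lower. Among neighbours outside the clusters, 2 of 18 tested were higher, a share close to that of all genes, namely Skap2 by 1.00 (SE 0.06) and Ttll6 by 2.54 (SE 0.21), and none was lower.
Hox proteins bind DNA with cofactors of the Pbx, Meis and Pknox families. Of these 9 genes, 3 were higher in cord and 1 lower. Pknox1 was higher by 1.07 on the log2 scale (SE 0.05) and Meis1 by 1.29 (SE 0.07), with Meis2 as the third. Among 26 Polycomb and Trithorax genes, which hold Hox genes silent or active, 1 was higher, Kmt2b (log2 difference 0.71, SE 0.06), 1 was lower and 24 were not called. Of 19 tested retinoic acid, Cdx and other upstream genes, 4 were higher and 2 lower. The smallest p-values were those of Crabp1, a retinoic acid binding protein (log2 difference 3.92, SE 0.22), and Egr2 (3.59, SE 0.23). Egr2 also acts in Schwann cells. Of 10 tested nerve root and ganglion markers, 6 were higher in cord and 2 lower, and 2 of the 10 failed the filter in midbrain. Of the skeletal muscle markers 10 of 10 were higher, 5 of them tested through the cord libraries alone.

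In the spinal cord comparisons between groups, no gene of these lists was called. For MPTP-Veh against Con the 7 noncoding transcripts had a median log2 difference of -0.40, the 18 neighbours one of -0.01, the 9 cofactors one of -0.02 and the 26 Polycomb and Trithorax genes one of 0.03, against -0.0019 for all genes. Hotair, which lies beside the posterior Hoxc genes, had 97, 51, 60 and 71 counts in Con and 37, 54, 32 and 33 in MPTP-Veh, which overlapped as counts. On CPM it was at 6.34, 3.84, 3.46 and 4.25 in Con and 2.24, 3.41, 1.95 and 2.17 in MPTP-Veh, where the lowest Con value lay just above the highest MPTP-Veh value. The log2 difference of Hotair was -0.88 (SE 0.23, adjusted p = 0.190), and without Con replicate 2 it was called at -0.94 (adjusted p = 0.0373). It had 58, 96, 59 and 45 counts in MPTP-SU, 60, 65, 68 and 55 in MPTP-SU+S, and 33, 42, 57 and 44 in MPTP-SU+T.
In midbrain the same lists held called genes for MPTP-SU against MPTP-Veh, where 13.5% of all genes were called. Lower in MPTP-SU were 5 of 18 upstream genes, 2 of 18 neighbours, 1 of 9 cofactors and 1 of 26 Polycomb and Trithorax genes, and 1 of these 26 was higher. Among the upstream genes, Cyp26b1, which degrades retinoic acid, had a log2 difference of -2.13 (SE 0.52, adjusted p = 0.0149) and the retinoic acid receptor gene Rarg one of -0.91 (SE 0.25, adjusted p = 0.0215). The neighbours were Hnrnpa1 (-0.69) and Calcoco1 (-0.83), the cofactor was Pbx4 (-1.23), and the Polycomb and Trithorax genes were Pcgf2 (-0.83) and Kdm6a (0.84). Without MPTP-Veh replicate 4, Cyp26b1 (-1.59, adjusted p = 0.0309) and Pcgf2 (-0.60, adjusted p = 0.00640) were still called. Hnrnpa1, Calcoco1, Rarg and Kdm6a then passed the adjusted p but not the fold, and Pbx4 did not pass the adjusted p. In the other midbrain comparisons no gene of these lists was called.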

How the data were processed

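RNA was sequenced from 20 midbrain and 20 spinal cord libraries after poly(A) selection (CORALL RNA-Seq V2, 100-bp paired-end reads). The authors used fastp for trimming, STAR for alignment and Salmon for quantification. Their processing notes name GRCm39. The deposited files hold estimated counts per gene, already whole numbers and not normalized, for 40213 symbols, with the same number of rows in each. The use of strand is not given in the sources used here. Genes were filtered with filterByExpr (minimum count 10, total 15), scaled by TMM and tested by edgeR 4.0.16 quasi-likelihood fits in R 4.3.3, over all 40 libraries for tissue and over the 20 libraries of a tissue for treatment. A call needed a Benjamini-Hochberg adjusted p below 0.05 over all genes and, for 2 groups, over 1.5-fold. Log2 CPM used a prior count of 2. Lengths came from GENCODE vM21 (GRCm38), which matched 39 members, and differ in build from the files. A fold against 0 used a floor of 3 counts. DESeq2 1.42.0 and limma 3.58.1 gave alternatives.

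Scripts were tested on simulated counts. The values of single libraries were given for members at 1 CPM or more in the median library of a tissue or called within a tissue, by library or by their range, and from each other list the called genes with the 3 smallest p-values in the comparison described were named, except that 1 member and a few other genes are not reported here. Other genes named, among them library markers, Hotair and Gm26917, were chosen after their values were seen. Members and lists were chosen with earlier results of these data known. No pair of libraries was identical. Replicate numbers recur across groups and tissues. Depth was 11958200 counts or more per library.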

Additional observations from a re-analysis of the deposited data

Results flagged for a closer look

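In 11 of 165 groups of 4 spinal cord libraries, 1 library lay far from the other 3 by Dixon's ratio of gap to range, where chance gives about 1 in 20. These were Hoxa2 in MPTP-SU+S replicate 2 (5.71 CPM), Hoxa3 in Con replicate 3 (14.5 CPM), Hoxb3 in MPTP-SU+T replicate 1 (19.1 CPM), Hoxb4 in MPTP-Veh replicate 2 (6.38 CPM), Hoxb6 in MPTP-Veh replicate 3 (44.4 CPM), Hoxb9 in MPTP-SU+T replicate 3 (76.9 CPM), Hoxc8 in Con replicate 2 (63.2 CPM), Hoxd1 in MPTP-SU+S replicate 1 (1.93 CPM), Hoxd8 in MPTP-Veh replicate 1 (57.2 CPM), Hoxd10 in Con replicate 1 (60.1 CPM) and Hoxd11 in MPTP-Veh replicate 2 (9.85 CPM). They fell in 10 different libraries, with MPTP-Veh replicate 2 named 2 times.

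For the change from MPTP-Veh to MPTP-SU, edgeR's interaction test between the tissues called 4 of 34 members, a share below the 16.8% of all genes. All 4 passed the low-count filter through the cord libraries alone, so the count is given as a description. Hoxb5 and Hoxc4, which passed it in both tissues, were not called. The spinal cord change minus the midbrain change, on the log2 scale, was 3.27 for Hoxa3 (adjusted p = 0.0268), 3.86 for Hoxb4 (0.0309), 4.59 for Hoxc10 (0.0351) and 3.75 for Hoxc6 (0.0376). In each the midbrain side rests on a few counts, such as the 9 Hoxc10 counts of midbrain MPTP-Veh replicate 4. Without that library the values were 3.35 for Hoxa3 (adjusted p = 0.0346), 1.87 for Hoxb4 (0.392), 0.16 for Hoxc10 (1.00) and 1.80 for Hoxc6 (0.456). The value of Hoxa3 fell to 1.91 (adjusted p = 0.206) without midbrain MPTP-Veh replicate 1. In that same midbrain comparison 2 of 6 tested pons and medulla markers were lower, and their part in the result was not tested.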

How the results depend on the processing

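Members called higher in spinal cord numbered 34 when each library was left out, 37 of 39 without a low-count filter and 33 in the Con libraries alone. In the main fit 12.2% of all genes were called higher. Of the 34, 32 passed the filter through the cord libraries alone, so that these counts are descriptions and not support. Members called among the 5 spinal cord groups numbered 0 with library size as the only scaling, 4 without the filter (445 genes in all, against 25), 3 by DESeq2 (748 in all) and 0 to 5 when a library was left out. The 5, found without Con replicate 2, were Hoxa10, Hoxb8, Hoxc10, Hoxc13 and Hoxd10. For MPTP-Veh against Con in cord, 2 were called without the filter (Hoxc13 and Hoxd10). DESeq2 called 1, Hoxd10, its only call among all genes. There were 0 called members by limma-voom, an alternative chosen after seeing the data, and 0 to 4 when a library was left out. Dropping the filter also moved the calls over all genes among the 5 groups, from 25 to 445. Leaving out Con replicate 2 also raised the calls over all genes, as given above. The counts of members are therefore not read as particular to Hox genes. In midbrain 0 to 1 was called among the groups (Hoxb5 without MPTP-Veh replicate 4). For MPTP-SU against MPTP-Veh it was 0 to 1 (Hoxb4 without MPTP-Veh replicate 1, 2 or 3). Hoxb4 failed the midbrain filter with all libraries. Its counts were 1, 2, 3 and 23 in MPTP-Veh and 2, 0, 0 and 0 in MPTP-SU. The 23 counts came from MPTP-Veh replicate 4, the library with few mitochondrial counts. The interaction of tissue and treatment was counted here only for Hoxb5 and Hoxc4, which passed the filter in both tissues. It called 0 to 1 of them (Hoxc4 without midbrain MPTP-Veh replicate 3). Other comparisons called 0 members in every such run. Keeping group means gave r = 0.67 (adjusted p = 0.00264) for Hoxa10 and Hoxc10 and turned Hoxc10 and Hoxc5 to r = 0.35 (adjusted p = 0.18). Leaving out a library gave r = 0.56 to 0.78 for Hoxc10 and Hoxd10, 0.40 to 0.58 for Hoxa10 and Hoxc10, -0.55 to -0.37 for Hoxc10 and Hoxc5 and 0.04 to 0.41 for Hoxa5 and Hoxb5. The cause of these changes was not tested.

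Same-numbered libraries of both tissues correlated with r = -0.19 to 0.34 over 20 pairs, 4 of them over 0.1. Within midbrain 7 of 16 same-numbered pairs were over 0.1, and within spinal cord 1 of 16. Since not every pair passed 0.1 and the labels name no shared animal, the numbers were not taken to pair the samples. As a hint from the data, 13 of 20 libraries correlated best with their own number, and the bar of 0.1 cannot exclude shared animals. The main tests between tissues treated all libraries as independent. A replicate block called 2 members among the spinal cord groups, Hoxc10 and Hoxd10 (156 genes in all), 0 for MPTP-Veh against Con and 34 between tissues. Depth limits the midbrain values, where a median library held 30.5 Hox counts.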
